A study of Mus musculus with 18 samples.

Results

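Mouse embryonic stem (ES) cells of strain C57/B6 were compared with the neural progenitors made from them, in cells that carried both intact alleles of Hmgn1 (Hmgn1+/+). Hmgn1 encodes a protein that binds nucleosomes and loosens chromatin compaction. The comparison used 6 of the 18 arrays of the series, 3 of ES cells and 3 of neural progenitors, which were chosen by their labelled cell type and genotype and not by any measured value. The other arrays were 3 of neurons of the same genotype and 9 of the same 3 cell types labelled Hmgn1-/-. ES cells were kept in medium with serum replacement and LIF, the cytokine that holds mouse ES cells undifferentiated, either on mitomycin-treated mouse embryonic fibroblasts or without feeder cells, and which arrays came from which condition is not stated. The progenitors were made with a commercial kit for dopaminergic neurons (R&D System), and neither the day of differentiation nor the number of ES cell lines is stated. The 3 arrays of each group are labelled as biological replicates. Whether they were separate cultures is open. P-values measure only the spread between arrays of a group, pooled over the groups of all 18 arrays, and that spread may be technical.

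A mouse ES cell keeps itself undifferentiated through a small network of transcription factors, among them Pou5f1 (OCT4), Sox2 and Nanog, together with LIF and STAT3 signalling. On neural induction that network is shut down, Sox1 and Pax6 come on, epithelial cadherin gives way to neural cadherin, and the cells become radial, nestin-positive progenitors that Notch signalling holds in a dividing state. ES cells also give rise to endoderm, mesoderm and other lineages in the same dish unless these are kept out.

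Values were intensities per probe set, the group of short probes that reads 1 transcript. Of 45101 probe sets, 34945 had exactly 1 gene symbol, and after a filter on low values and the choice of 1 probe set per gene 14432 genes were tested. Between progenitors and ES cells 11334 genes, or 78.5% of those tested, changed at an adjusted p under 0.05 (limma with Benjamini-Hochberg adjustment over all tested genes). Of all tested genes 5966 (41.3%) were higher in progenitors and 5368 (37.2%) were lower. At least a 2-fold change was called for 3901 genes (27.0%), 2526 higher (17.5%) and 1375 lower (9.53%). The median log2 difference over all tested genes was 0.02, with quartiles at -0.41 and 0.66. With most genes past the threshold, a call by itself says little about a gene or a list, and sizes are given throughout. All differences below are log2 differences, progenitors minus ES cells, with the standard error (SE) of the fit and 3 arrays per group.

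The split between higher and lower genes depended on how the arrays were scaled. Higher genes made up 52.6% of the called genes on the deposited scale, 48.9% after quantile normalization and 34.9% after each array was shifted to a common median. The last of these moved the median difference of all genes to -0.29, because the median log2 value of the tested genes was 7.74 on the ES cell arrays and 8.05 on the progenitor arrays. Over all probe sets the medians of the 6 arrays were alike, at intensities of 56.3 to 57.3, and centring used the tested genes alone. Changes of less than about the size of that shift therefore have no settled direction here, while the changes of more than 2-fold that most of the text describes are several times larger. Of the genes named below, Afp, Amn, Cdc20, Cdk1, Dnmt1, Ezh2, Gad1, Il6st, Lifr, Phgdh, Pitx3, Ptbp1, Ptch1, Rnf2, Sox10 and Stmn2 lost their call or turned direction under at least 1 alternative. Fn1, Hmgn1, Mki67, Pcna, Smarca4 and Smarcb1, which did not pass the test on the deposited scale, turned direction and were called lower after that shift. That shift also took 11 further named genes, which had not passed, over the threshold in the direction they already had. Where it moved the split of a list by much, that split is given beside the first as the one after centring. Many sizes depended on the choice of probe set. The mean over a gene's kept probe sets, in place of the brightest, changed the fold of 74 named and called genes by over 1.5 times. The change became smaller for 67 of them and larger for 7, among these Esrrb, Fgf4 and Hes5. That mean is given beside the genes reported with a standard error and an adjusted p, and beside some others.

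Arrays of the same group were alike and the groups stood far apart. Across genes the ES cell arrays correlated at r 0.9949 to 0.9962 with each other, the progenitor arrays at 0.9979 to 0.9982, and arrays of different groups at 0.833 to 0.84. The 6 arrays separated the groups without overlap for 11633 genes, or 80.6% of those tested. Replicate 3 of the ES cells stood somewhat apart: 32 genes were over 2-fold away from the mean of the other two arrays there, 30 of them above, against 9 and 8 genes on the other ES cell arrays and 0 on each progenitor array. Of the 30 genes that were high on it, 27 were called higher in progenitors and 3 lower. They included the neural factor Zic1, the nuclear receptor Nr2f2, the homeobox gene Lhx2, the microfibril gene Fbn2 and the immediate early gene Fos. Fos read 117, 115 and 415 on the ES cell arrays and 602, 599 and 729.9 on the progenitor arrays (log2 difference 1.85, SE 0.32, adjusted p 5.36e-05), so that 1 of the 3 ES cell values lay well above the other two. The part of that array in the results was not tested beyond the fits without it.

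The marker genes listed for each cell type were chosen with earlier results of these data known, so their counts are a description. They went with the labels, and with more than the labels. All 7 ES cell markers fell, and their summed intensity went from 40094 to 41780 on the ES cell arrays to 1432 to 1510.3 on the progenitor arrays. All 7 neural progenitor markers rose, from sums of 612 to 705 to sums of 20374 to 21913. All 6 endoderm markers rose as well, from 215 to 282 in ES cells to 7311 to 7507 in progenitors, and so did all 7 markers of mesenchyme or feeder fibroblasts, from 343 to 425 to between 8899 and 9528. All 5 neuronal markers rose, from 2951 to 3324 to 5394 to 5462. Of the other markers that could be tested, 1 of 3 mesodermal, 2 of 4 astroglial, 1 of 2 oligodendroglial, 1 of 1 trophoblast and 2 of 2 endothelial genes were higher, and the other oligodendroglial gene and 2 of 2 neural crest genes were lower. The progenitor samples thus held RNA of neural, endodermal and mesenchymal genes together. In bulk RNA more cells of a type and more RNA per cell cannot be told apart, and neither can a mixture of cells and cells that express several programmes.

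**Figure D1:**
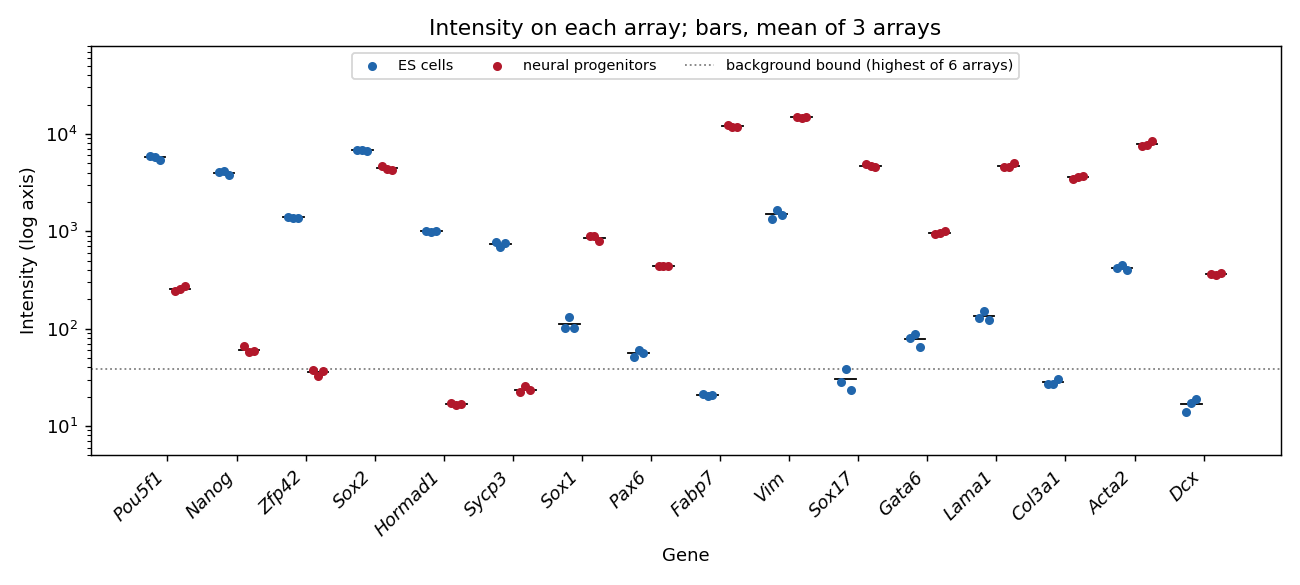
Intensity on each of the 3 ES cell arrays and 3 neural progenitor arrays, on a logarithmic axis, for 16 genes that mark pluripotency, germline, neural, endodermal and mesenchymal programmes. For each gene drawn here the 3 arrays of a group sit close together against the distance between the groups; Sox2 is the gene with the smallest distance.

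Pluripotency factors fell with few exceptions, but not all to background and not all alike. Of 27 tested genes in a list of core and naive pluripotency factors, 24 were lower and 2 higher (Tcf3 and Zfx), with a median of -1.41 against 0.02 over all genes. Tcf3 is here the helix-loop-helix gene E2A, and Tcf7l1, a separate gene that has also been called TCF3, moved by -0.17 (SE 0.07). Of the other Zfx probe sets 1 was called lower. Nanog read 4033, 4141 and 3774 on the ES cell arrays and 65.6, 57.5 and 59.5 on the progenitor arrays (log2 difference -6.01, SE 0.12, adjusted p 1.10e-16). Pou5f1 read 5953, 5798 and 5452 on the ES cell arrays and 243, 258 and 272 on the progenitor arrays, a 22.2-fold fall (log2 difference -4.47, SE 0.10, adjusted p 4.17e-16). Zfp42, the gene of the ES cell marker REX1, read 1389, 1383 and 1383 on the ES cell arrays and 38.0, 32.3 and 36.4 on the progenitor arrays, at least 36.1-fold lower once the progenitor level is set to the background bound. None of the 3 ranges overlapped between the groups. Such a lack of overlap, also where it is named for later genes, held for 80.6% of all tested genes and says little by itself. Here and below that bound is the 40th percentile of each array, at intensities of 36.9 to 38.7 on these 6 arrays, and a fold written as "at least" is measured against it.

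Sox2 behaved otherwise. It is a partner of OCT4 in ES cells and also a factor of neural progenitors, and it read 6901, 6849.9 and 6599 on the ES cell arrays and 4689, 4393 and 4235 on the progenitor arrays (log2 difference -0.61, SE 0.059, adjusted p 4.91e-08), a 1.53-fold fall that left it bright in both. Next to it stood the rest of the naive network. Klf2, which binds many of the same enhancers as Klf4, went from a mean of 1094 to 73.4 (-3.89, SE 0.12), while Klf4 kept a mean of 1319 in progenitors against 3535 (-1.42, SE 0.074) and Klf5 794 against 1962 (-1.30, SE 0.11). Tfcp2l1, a STAT3 target, fell 14.6-fold, from 721, 717 and 661 to 50.1, 41.5 and 49.6, and Prdm14, which keeps DNA methylation low in naive cells, at least 7.51-fold. Esrrb went from a mean of 480.1 to 128 on the probe set used (-1.88, SE 0.15), and by -3.16 as the mean of its probe sets. Sall4, Rif1 and Mycn remained above 1000 on the progenitor arrays, with means of 1449, 1431 and 2061, after falls of 3.11-fold, 3.29-fold and 1.82-fold.

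The promoter of Nanog is shown because a joint OCT4 and SOX2 element lies in it and the gene was among the largest falls. Promoter windows of 250 bases before the annotated start came from RefSeq (build GRCm38.p6), and 11566 of the 14432 tested genes had at least 1. Shares are of genes, and a gene with several windows counted if any of them held the motif. The full composite element of the pair was searched on both strands and is in capitals below, where it reads from the opposite strand. It occurred in the window of 1 of 27025 genes, that of Nanog, where it begins 75 bases before the start (chr6:122707239-122707488, plus strand). A shorter form of it that lacks the last 3 letters was found for 17 genes, among them 1 of 1087 genes that were at least 2-fold lower and 3 of 1992 that were at least 2-fold higher. The octamer ATGCAAAT, the OCT4 site alone, was found for 1.81% of all genes with a window, for 2.39% of those at least 2-fold lower and for 1.91% of those at least 2-fold higher. Zfp42 is shown because it is the gene of the core list with an octamer in its window (chr8:43307010-43307259, minus strand), 186 bases before the start. A match is a description of the letters and not a binding site, and distal enhancers were not searched.
Nanog: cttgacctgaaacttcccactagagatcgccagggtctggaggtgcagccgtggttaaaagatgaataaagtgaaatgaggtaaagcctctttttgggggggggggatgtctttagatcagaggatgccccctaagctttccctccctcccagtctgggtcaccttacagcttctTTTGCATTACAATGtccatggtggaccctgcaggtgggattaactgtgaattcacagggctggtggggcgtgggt
Zfp42: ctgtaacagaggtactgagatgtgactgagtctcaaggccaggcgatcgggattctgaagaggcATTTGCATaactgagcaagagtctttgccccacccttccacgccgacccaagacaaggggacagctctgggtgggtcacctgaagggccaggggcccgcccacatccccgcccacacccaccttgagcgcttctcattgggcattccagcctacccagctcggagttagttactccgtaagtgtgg

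Genes that mark or serve the stem cell state fell further than the factors. Of 33 tested genes in that list 31 were lower and 2 higher (Cd9 and Fut4), with a median of -3.29, and 29 fell at least 2-fold. Tdgf1 read 10292, 10429 and 10418 on the ES cell arrays and 129, 118 and 98.2 on the progenitor arrays (log2 difference -6.49, SE 0.12, adjusted p 4.90e-17); it encodes a co-receptor for NODAL. Dppa5a, an RNA-binding protein of ES and germ cells, read 17199, 16706 and 16496 on the ES cell arrays and 656, 702 and 700.3 on the progenitor arrays and fell 24.5-fold. Neither gene's groups overlapped. Eras, a Ras-like gene that feeds PI3K signalling in ES cells, was at least 50.2-fold lower. The neighbouring genes Dppa2 and Dppa4, whose products prime developmental promoters, fell 48-fold and 51.8-fold, and L1td1, an RNA-binding protein derived from a retrotransposon, fell 26-fold. Alpl, the alkaline phosphatase used to stain ES cell colonies, went from a mean of 378 to 44.4, close to the background bound. The RNA-binding gene Mkrn1 and the glucose transporter gene Slc2a3 stayed at means of 1024 and 4488 in progenitors.

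The LIF and STAT3 pathway went the same way at its outputs and little at its receptors. Of 14 tested members 10 fell and 2 rose, with a median of -0.65. Socs3, the feedback inhibitor that STAT3 induces, read 2809, 3036 and 3031 on the ES cell arrays and 504, 564 and 478 on the progenitor arrays (log2 difference -2.52, SE 0.11, adjusted p 1.39e-12). The receptor genes Lifr (-0.41, SE 0.068) and Il6st (-0.17, SE 0.070) and the kinase gene Jak1 (0.13, SE 0.078) moved little, and another probe set each of Lifr and Il6st was called in the opposite direction. Stat3 itself fell by 0.44 (SE 0.084).

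Most of a list of germline and two-cell-like genes fell. Germ cell genes encode the meiotic chromosome axis and the machinery that silences transposons, and a number of them are active in mouse ES cells. Of 20 tested members 17 were lower and 3 higher (Tdrkh, Arg2 and Rhox6), with a median of -3.33, which was -1.98 over 23 members with no filter on low values. Hormad1, a protein of the meiotic chromosome axis, read 996, 989 and 1006 on the ES cell arrays and 17.4, 16.6 and 16.9 on the progenitor arrays (at least 26.2-fold lower, adjusted p 1.76e-20). Sycp3, another axis protein, read 777, 686 and 751 on the ES cell arrays and 22.2, 25.5 and 23.2 on the progenitor arrays (at least 19.4-fold lower, adjusted p 6.47e-16). Both were below the background bound on the progenitor arrays. Ddx4, the germ cell helicase VASA, fell at least 12.4-fold from 493, 467 and 450.2, Mael, a protein of the piRNA pathway that silences transposons, at least 12.2-fold from 470.3, 475 and 448, and Piwil2, a PIWI protein of that pathway, at least 11.5-fold. Stra8, which starts meiosis, kept a mean of 49.9 after a 26.1-fold fall from 1319, and Dazl was at least 8.21-fold lower. Further genes of the kind outside this list fell as well: Morc1, needed to silence transposons in male germ cells, at least 59.7-fold from 2377, 2263 and 2179.6, the testis form of cytochrome c, Cyct, 56.2-fold from 2911, 2693 and 2039.5, and the testis proteasome subunit gene Psma8 at least 21.3-fold from 806, 821 and 803.

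Promoters of the germline genes are printed because 7 of the 15 list members with a window (46.7%) held the E-box CACGTG within 250 bases of the start: Ddx4, Hormad1, Mael, Stk31, Sycp1, Sycp3 and Taf7l. The share was 6.86% over all 27025 genes with a window, 9.6% over tested genes, 10.9% over genes at least 2-fold lower and 7.93% over those at least 2-fold higher. This motif was chosen after these promoters had been read, and the share in the list is therefore a description of sequences picked for it. CACGTG is its own reverse complement, so both strands are covered. It is in capitals in the 4 windows below, which are those of Hormad1 (chr3:95559427-95559676, plus strand), Sycp3 (chr10:88459337-88459586, plus strand), Ddx4 (chr13:112652311-112652560, minus strand) and Mael (chr1:166238745-166238994, minus strand). Hormad1 holds it 57 and 20 bases before its start and Sycp3 64 and 43 bases before, Ddx4 holds it 29 bases and Mael 223 bases before. The window of Stra8 (chr6:34920698-34920947, plus strand), shown last, has 0 copies, and Stra8 fell as well.
Hormad1: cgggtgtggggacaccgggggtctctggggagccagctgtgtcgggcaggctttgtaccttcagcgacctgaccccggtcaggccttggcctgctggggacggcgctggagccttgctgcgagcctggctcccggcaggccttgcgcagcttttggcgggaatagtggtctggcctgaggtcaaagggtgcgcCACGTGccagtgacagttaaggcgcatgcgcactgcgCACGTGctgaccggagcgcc
Sycp3: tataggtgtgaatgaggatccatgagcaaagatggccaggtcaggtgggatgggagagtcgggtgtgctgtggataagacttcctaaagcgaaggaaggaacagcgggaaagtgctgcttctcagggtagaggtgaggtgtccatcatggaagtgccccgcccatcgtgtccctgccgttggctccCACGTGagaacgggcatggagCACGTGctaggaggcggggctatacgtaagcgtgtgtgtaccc
Ddx4: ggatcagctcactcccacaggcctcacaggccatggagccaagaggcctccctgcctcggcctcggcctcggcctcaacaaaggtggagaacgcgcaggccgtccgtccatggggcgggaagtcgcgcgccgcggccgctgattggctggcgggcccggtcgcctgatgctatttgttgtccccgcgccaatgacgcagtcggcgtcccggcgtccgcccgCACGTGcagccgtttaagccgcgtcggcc
Mael: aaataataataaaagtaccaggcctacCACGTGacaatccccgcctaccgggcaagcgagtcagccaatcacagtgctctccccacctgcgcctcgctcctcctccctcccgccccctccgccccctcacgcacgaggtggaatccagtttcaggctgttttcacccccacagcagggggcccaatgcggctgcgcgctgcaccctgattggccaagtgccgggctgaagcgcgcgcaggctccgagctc
Stra8: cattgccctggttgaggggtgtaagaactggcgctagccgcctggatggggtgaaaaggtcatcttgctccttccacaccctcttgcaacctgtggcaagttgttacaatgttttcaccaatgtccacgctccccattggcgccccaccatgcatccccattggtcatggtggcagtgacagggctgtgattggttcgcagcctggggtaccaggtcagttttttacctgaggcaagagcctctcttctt

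Genes of the primed epiblast, the state between naive ES cells and the germ layers, went both ways. Of 15 tested members 5 rose and 8 fell, with a median of -0.45. The 2 de novo DNA methyltransferase genes of the list, Dnmt3b and Dnmt3a, fell 6.47-fold and 4.13-fold, and 1 of 4 other probe sets of Dnmt3a was called higher. Pou3f1, an early epiblast and neural factor, read 1410.1, 1609.5 and 1806 on the ES cell arrays and 315, 312 and 282 on the progenitor arrays (log2 difference -2.40, SE 0.11, adjusted p 2.60e-12). Otx2 and Zic2, which the epiblast shares with the neural plate, rose 3.78-fold and 1.97-fold. Of the genes of the primitive streak, Mixl1 fell at least 1.22-fold, and Eomes (-0.23, SE 0.12) and Mesp1 (-0.094, SE 0.060) did not pass the test. Nodal, the signal that patterns the epiblast, was 17.5-fold lower.

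The neural progenitor factors rose almost as a block. Of 36 tested transcription factors in the list 34 were higher and 1 lower (Zic5), with a median of 2.49, and 31 of them at least 2-fold. Sox1, the earliest marker of the neural plate, read 103, 132 and 101 on the ES cell arrays and 897, 893 and 788 on the progenitor arrays (log2 difference 2.94, SE 0.10, adjusted p 5.88e-14, and 1.65 as the mean of its probe sets). Pax6, a factor of dorsal and forebrain progenitors, read 51.5, 60.1 and 56.3 on the ES cell arrays and 434, 435 and 443 on the progenitor arrays (log2 difference 2.95, SE 0.10, adjusted p 4.08e-14, and 1.23 as the mean of its probe sets). The arrays of the groups did not overlap for either. Zic1, a zinc finger factor of the dorsal neural tube, rose from a level at background. It read 19.3, 15.8 and 84.0 on the ES cell arrays and 6443, 5803 and 5261 on the progenitor arrays (at least 114-fold higher, adjusted p 8.55e-12), with the third ES cell array above the bound and the other two under it, and all 3 far below the progenitors. Pou3f3, a POU factor of the developing cortex and midbrain, was at least 35.7-fold higher, from 15.7, 13.7 and 14.7, all under the bound, to 1429.7, 1420.0 and 1354. The other kept Pou3f3 probe set was not called, and the log2 difference was 3.30 as the mean of its probe sets.

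Factors that take part in patterning of the neural tube rose by different amounts. The COUP-TF genes Nr2f1 and Nr2f2 went from means of 27.7 and 71.1 to 822 and 1114. Six3, a forebrain factor, rose 15.1-fold, Lhx2, of the eye field and cortex, at least 7.83-fold, and Meis1 at least 7.71-fold. As the mean of their probe sets the log2 differences of Six3 and Meis1 were 1.924 and 1.538, against 3.915 and 3.595 on the probe sets used. The SoxB genes Sox3 and Sox21 rose 5.81-fold and 4.76-fold, and Sox11 and Sox4, which act in young neurons, 4.41-fold and 2.19-fold. Sox9 and Nfia, which open the time of glia formation, rose from means of 26.2 and 45.2 to 156, 168 and 180.2 and to 290.0, 302 and 296. Rax, the eye field factor, (-0.14, SE 0.10) and Nkx2-1, of the ventral forebrain, (0.11, SE 0.11) did not pass the test.

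Proteins that build a progenitor rose with the factors, and 22 of 23 tested members of that list were higher, with a median of 2.68. Fabp7, the brain lipid-binding protein of radial glia, had the largest rise of all genes. It read 21.1, 20.3 and 20.7 on the ES cell arrays and 12211, 11796 and 11859 on the progenitor arrays (at least 304-fold higher, adjusted p 8.08e-21). Vim, the intermediate filament vimentin, read 1334, 1668 and 1483 on the ES cell arrays and 15018, 14669 and 14966 on the progenitor arrays (log2 difference 3.32, SE 0.074, adjusted p 2.75e-16, and 2.67 as the mean of its probe sets). Nes, which encodes nestin, rose 5.4-fold to 937, 1041 and 1125. Prom1, the apical membrane protein CD133, read 155, 188 and 172 on the ES cell arrays and 1773, 1721 and 1738 on the progenitor arrays (log2 difference 3.34, SE 0.061, adjusted p 3.09e-17). Further rises were those of the membrane glycoprotein genes Gpm6a and Gpm6b, by at least 30.7-fold and by 26.5-fold, and of Ptn, a secreted growth factor, by 63.8-fold. Its relative Mdk did not pass the test (-0.14, SE 0.10).

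Genes of the step from progenitor to neuron were partly on. Of 21 tested proneural and helix-loop-helix factors 14 rose and 6 fell, with a median of 1.26. Inhibitors of these factors were among those that rose: Id4 28.1-fold, from 169, 166 and 135 to 4406, 4381 and 4431, and Id3 7.21-fold. Neurog2 and Neurog1, which start neuron formation, rose from means of 44.6 and 32.0 to 91.9 and 137. Neurod1, which acts later in that cascade, fell 4.2-fold, from 651, 605 and 559 to 146, 143 and 141.

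Of 34 tested pan-neuronal genes 23 rose and 6 fell, with a median of 1.61. Tubb3, the neuronal beta tubulin, read 170.3, 140.3 and 127 on the ES cell arrays and 457, 456 and 417 on the progenitor arrays (log2 difference 1.61, SE 0.092, adjusted p 5.08e-11). Dcx, the microtubule protein of migrating neurons, went from a mean of 16.7, under the bound, to 363, 354 and 372 (at least 9.27-fold higher, adjusted p 3.38e-17). Of 2 other Dcx probe sets 1 was called higher and 1 lower. Both genes were higher still in neurons, with means of 2789.5 and 4162. Map2 rose at least 27.5-fold on the probe set used, where its log2 difference was 5.263, against 1.717 as the mean of its probe sets. Several neuronal genes were already bright in ES cells. Stmn2 read 2814, 2747 and 3131 there against 3325, 3458 and 3460.3 in progenitors, Nefl fell from a mean of 1341 to 715 with its other probe set called higher, and Nefh, the heavy neurofilament, fell from 539.8, 536 and 556 to 41.9, 45.1 and 41.3. The synaptic and transmitter list had 15 of 21 members higher and 3 lower (11 and 4 after centring) with a median of 0.55, and stood far below the level of neurons: Snap25 reached a mean of 114 and Gad1 54.5, against 2431 and 5191 in neurons.

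The kit is made for midbrain dopaminergic neurons, which come from the floor plate, the ventral strip of the neural tube that secretes SHH. Of 28 tested genes for that region and fate 23 rose and 2 fell, with a median of 1.84. Shh read 63.5, 71.2 and 84.3 on the ES cell arrays and 2298, 2459.8 and 2375 on the progenitor arrays (log2 difference 5.02, SE 0.13, adjusted p 1.99e-15, and 3.08 as the mean of its probe sets). Foxa2, which floor plate and endoderm share, read 30.2, 62.6 and 36.1 on the ES cell arrays and 989.9, 1075 and 1040.3 on the progenitor arrays (log2 difference 4.63, SE 0.24, adjusted p 1.75e-11). Otx2 rose to 1859, 1841 and 1817 and En2, of the midbrain and hindbrain boundary, to 731, 725 and 681, while En1 was under the bound in both groups, at 22.2. Slit2 and Ntn1, the guidance cues of the floor plate, rose 31.2-fold and 4.51-fold, and the Wnt ligand gene Wnt5a at least 26.6-fold. Most of the genes named here for the dopamine neuron itself did not rise. Th, tyrosine hydroxylase, had means of 54.5 and 50.5 (-0.077, SE 0.17), the dopamine transporter gene Slc6a3 31.5 and 27.3, and Pitx3 fell by 0.23 (SE 0.091). Nr4a2 (NURR1) rose from 52.0 to 144, and Ddc, the enzyme after Th in dopamine synthesis, fell from 709 to 292.

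Hox and Cdx genes, which give cells of the hindbrain, spinal cord and trunk their position, moved little. Of 39 listed genes 17 were below the filter on low values and 18 were tested, of which 4 rose, 4 fell (4 and 11 after centring) and 10 did not pass, none of them by 2-fold, with a median of -0.05, of either sign between alternatives. The largest rises were those of Hoxb4 (0.89, SE 0.11) and Cdx2 (0.80, SE 0.14), to means of 89.2 and 95.7.

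Endoderm genes rose with the neural ones. Definitive and visceral endoderm share the SOX17, GATA and FOXA factors, and visceral endoderm also makes a thick basement membrane. Of 12 tested factors 10 were higher and 1 lower (Hhex), with a median of 2.16. Sox17 read 28.4, 38.3 and 23.6 on the ES cell arrays and 4883, 4703 and 4545 on the progenitor arrays (at least 120-fold higher, adjusted p 1.51e-17). Gata6 read 79.8, 87.9 and 64.2 on the ES cell arrays and 943, 961 and 997 on the progenitor arrays (log2 difference 3.64, SE 0.15, adjusted p 5.91e-13). Gata4 and Sox7 rose to 214, 201 and 183 and to 286, 287 and 337, and Hnf4a, the factor of liver and gut, to a mean of 129.

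Products of endoderm rose in 29 of 34 tested genes, with 1 lower (Apoa2) and a median of 2.79. Col4a1, a chain of basement membrane collagen, read 150.3, 166 and 138 on the ES cell arrays and 10199, 10622 and 10309.5 on the progenitor arrays (log2 difference 6.09, SE 0.076, adjusted p 5.34e-19). Lama1, the first laminin alpha chain of the embryo, read 129, 149.9 and 124 on the ES cell arrays and 4536, 4615 and 4973 on the progenitor arrays (log2 difference 5.13, SE 0.10, adjusted p 1.07e-16). Col4a2, which lies head to head with Col4a1, rose 92.7-fold, Lamb1 5.09-fold and Sparc 9.47-fold, though another Sparc probe set was called lower. The endocytic receptor genes of visceral endoderm, Cubn, Lrp2 and Dab2, rose to means of 286, 825 and 954, and Amn, the partner of cubilin, to 81.7 from 66.0. Secreted products of mature visceral endoderm and liver were low: Afp had means of 41.2 and 52.4, and Apoa1 and Apoa4 did not pass the test. Ttr, which choroid plexus makes too, rose to 450.3 and reached 4437 in neurons.

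A list of mesenchyme and feeder fibroblast genes rose in 41 of 43 tested members, with none lower and a median of 2.68. Col3a1 read 26.8, 27.0 and 30.1 on the ES cell arrays and 3478, 3576 and 3694 on the progenitor arrays (at least 91.2-fold higher, adjusted p 2.05e-19). Acta2, smooth muscle actin, read 415, 447 and 397 on the ES cell arrays and 7565, 7669.6 and 8372 on the progenitor arrays (log2 difference 4.23, SE 0.17, adjusted p 6.31e-13, and 2.70 as the mean of its probe sets). Col1a2 went from a mean of 160.4 to 3446, Pdgfra from 58.7 to 2060.3, and the matrix protein genes Postn, Lum and Dcn from 41.9, 27.7 and 32.3 to 772, 507 and 602. The genes for the factors Twist1, Prrx1 and Zeb2 rose 5.1-fold, at least 5.43-fold and at least 14.4-fold. Fn1 (0.006, SE 0.14) and Tpm2 (0.37, SE 0.18) did not pass the test, and the other Fn1 probe set was called. Tpm2 read 1025, 998.6 and 906.7 on the ES cell arrays and 1222.7, 1205.7 and 1361.1 on the progenitor arrays. Its SE takes in the spread of the other groups of the fit as well. Fibroblast feeders were used for some of the ES cell cultures per the labels. On the ES cell arrays Col1a1, Col3a1, Postn, Lum and Pdgfrb had means of 64.0, 28.0, 41.9, 27.7 and 11.9, and Acta2 and Tpm2 of 419.9 and 977. The part of feeder cells in these levels was not tested.

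Lists of other lineages moved in both directions. Of 26 mesodermal and cardiac genes 10 rose and 7 fell (10 and 14 after centring), with a median of -0.07. The median was 1.62 over the 13 members that passed a filter at the 60th percentile, a filter that a gene high in any group passes. Actc1, the cardiac actin, rose 10.5-fold to 572, 618 and 675, while Nkx2-5, Hand1, Hand2 and Foxf1 did not pass the test and Tcf15 fell 9.5-fold. Trophoblast genes were higher in 11 and lower in 2 of 20 tests (9 and 6 after centring), with a median of 0.58, and Tfap2c, shared with ES and germ cells, 9.47-fold lower. Neural crest genes rose in 5 and fell in 7 of 14, with Erbb3 7.08-fold lower and Sox10 at means of 113 and 84.1. Oligodendrocyte genes were lower in 6 and higher in 3 of 9, the last being Mbp, Nkx2-2 and Pdgfra, and astroglial genes were higher in 12 and lower in 1 of 17 (11 and 4 after centring), with Gfap (-0.25, SE 0.12) and S100b (-0.013, SE 0.18) not passing. Endothelial and blood genes rose in 5 and fell in 5 of 12 (4 and 7 after centring). The medians of the oligodendrocyte list (-0.35) and of the endothelial list (-0.04) were also of either sign between alternatives.

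**Figure D2:**
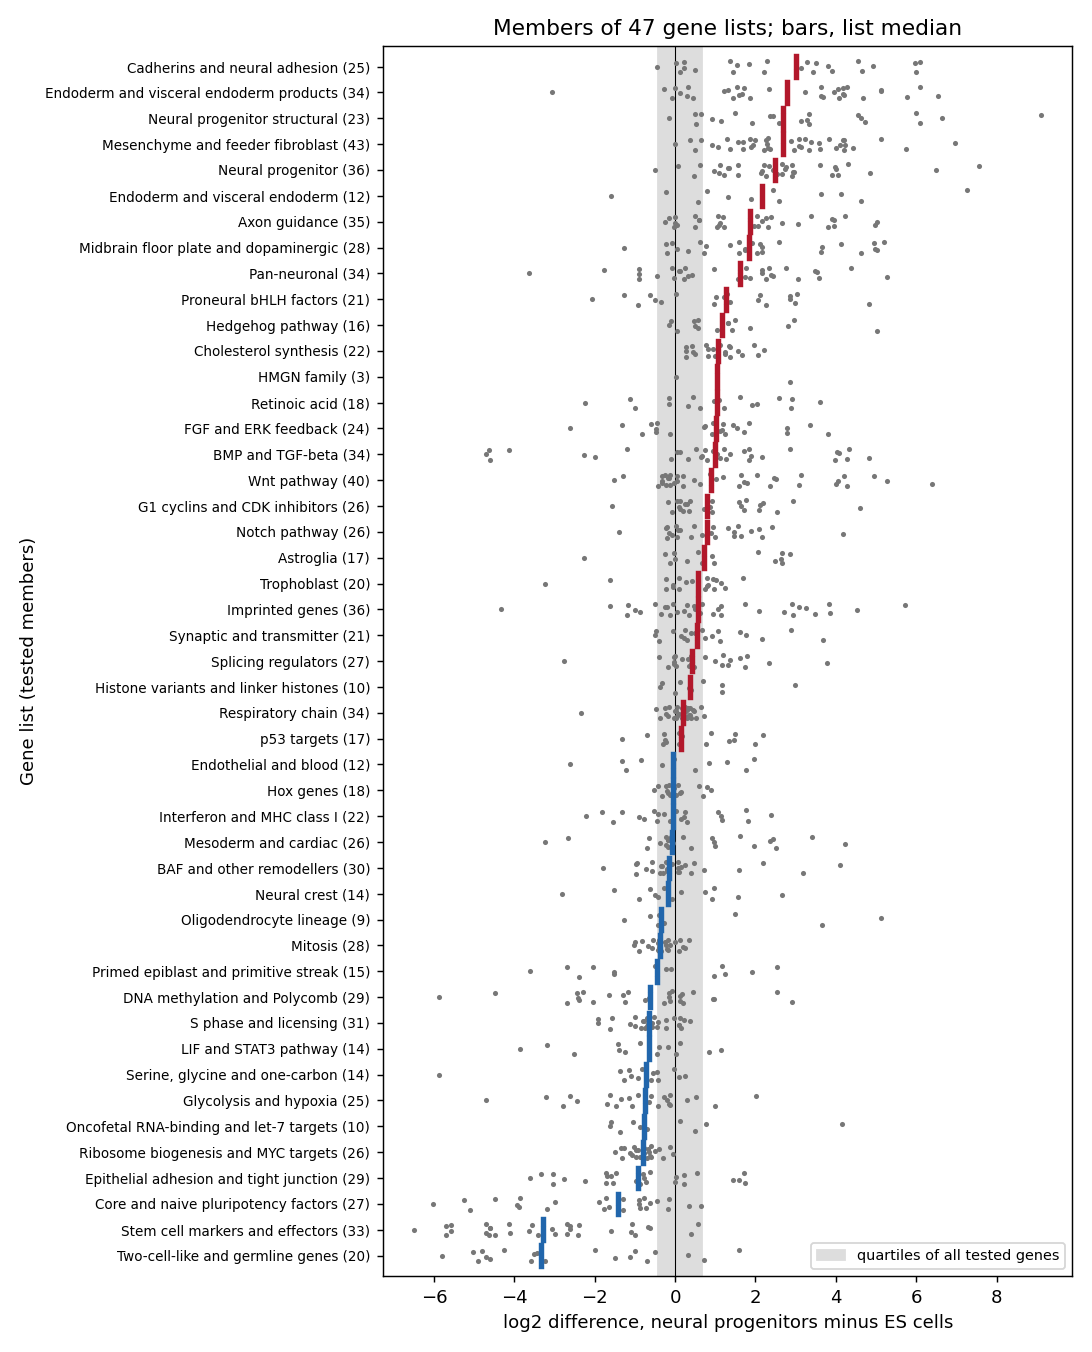
Log2 difference (neural progenitors minus ES cells) of every tested member of the 47 gene lists, 1 row per list ordered by its median, with grey points for members, a coloured bar for the median and a shaded band for the quartiles of all tested genes (-0.41 to 0.66). Germline and stem cell lists sit at the low end near -3.3, and cadherin, endoderm product, mesenchyme and neural lists at the high end between 2 and 3.

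ES cells are epithelial, and the RNA of junction genes changed over between ES cells and progenitors. Which cells of the progenitor samples carried that change was not tested. Cdh1, epithelial cadherin, read 5054, 5026 and 4750.1 on the ES cell arrays and 531, 474 and 471 on the progenitor arrays (log2 difference -3.33, SE 0.12, adjusted p 8.44e-14). Cdh2, neural cadherin, read 61.7, 97.3 and 89.3 on the ES cell arrays and 6017, 5496 and 5293 on the progenitor arrays (log2 difference 6.09, SE 0.13, adjusted p 2.04e-16). The 2 cadherins thus crossed, each with no overlap between groups. Of 29 tested epithelial adhesion genes 20 fell and 7 rose (22 and 4 after centring), with a median of -0.91: Epcam fell 4.71-fold and kept a mean of 1220.3, Cldn4 fell 8.26-fold and Grhl2, a factor that keeps epithelia, 12.3-fold. As the mean of its probe sets the log2 difference of Grhl2 was -1.31, against -3.618 on the probe set used. Esrp1, the splicing factor of epithelial isoforms, read 758, 850.3 and 795 on the ES cell arrays and 117, 119.5 and 115 on the progenitor arrays (log2 difference -2.76, SE 0.083, adjusted p 1.17e-14). The keratin genes Krt8, Krt18 and Krt19 went against the rest and rose 3.25-fold, 2.7-fold and 3.03-fold, as did the desmosome gene Dsp (1.74, SE 0.14); these are also expressed in visceral endoderm.

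Neural adhesion genes rose in 20 of 25 tested members and fell in 1, with a median of 3.0, which was 1.93 with the mean of each gene's probe sets. The type II cadherin genes Cdh6 and Cdh11 were at least 32.3-fold and at least 35.7-fold higher, and the protocadherin genes Pcdh8 and Pcdh19 rose at least 22.3-fold and by 14.9-fold. Ncam1 went from 71.0, 78.0 and 59.1 to 638, 638 and 752 and Nrcam from under the bound to 380.0, 404 and 388. As the mean of their probe sets the log2 differences of Ncam1 and Nrcam were 1.388 and 1.935, against 3.271 and 4.549 on the probe sets used. L1cam (0.22, SE 0.11) and Cntn2 (0.12, SE 0.10), which belong to growing axons, did not pass the test. Axon guidance genes were higher in 29 of 35 tests and lower in none (29 and 5 after centring), with a median of 1.87. Ligands and receptors were both among those that rose: Sema3c and Slit2 to means of 727 and 1431, and their receptor genes Nrp1 and Robo1 to 568 and 662. As the mean of their probe sets the log2 differences were 3.404, 2.982, 2.741 and 1.913, against 5.019, 4.962, 3.814 and 3.376 on the probe sets used. The receptor gene Unc5b did not pass the test (0.001, SE 0.081). Dcc, the netrin receptor, rose at least 10.2-fold, with 1 other probe set called lower, and to a mean of 2051 in neurons.

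Signalling pathways changed at ligands, receptors and targets. In the Notch pathway, which keeps progenitors from differentiating, 16 of 26 tested genes rose and 3 fell (14 and 9 after centring), with a median of 0.79. Notch1 read 449, 428 and 394 on the ES cell arrays and 1191, 1167 and 1173 on the progenitor arrays (log2 difference 1.48, SE 0.079, adjusted p 2.03e-11). Hes1, a Notch target that represses proneural genes, read 225, 239 and 236 on the ES cell arrays and 1036, 1073 and 1021 on the progenitor arrays (log2 difference 2.16, SE 0.068, adjusted p 2.38e-14). The ligand gene Dll1 rose 3.09-fold and the target gene Nrarp 5.32-fold. Hes5, another target, rose 2.48-fold to a mean of 315 on the probe set used (1.31, and 2.75 as the mean of its probe sets). Rbpj, the DNA-binding partner of Notch, fell from 2294, 2191 and 2257 to 824, 852 and 887. Notch3, Notch4, Dll4 and Hes6 did not pass the test.

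In the Hedgehog pathway 13 of 16 tested genes rose and none fell (12 and 3 after centring), with a median of 1.17. Shh itself had the largest rise (above), and the receptor gene Smo rose 3.66-fold and the co-receptor gene Gas1 7.82-fold. Gli3, the repressor, read 174, 192 and 157 on the ES cell arrays and 1172, 1194 and 1308 on the progenitor arrays (log2 difference 2.81, SE 0.10, adjusted p 6.38e-14). The direct targets of the pathway moved less: Gli1 did not pass the test, at 153, 159 and 149 and 148, 142 and 124, and Ptch1 rose 1.38-fold on 1 probe set while another was called lower.

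Of 24 tested FGF and ERK feedback genes 16 rose and 7 fell, with a median of 1.03. The ligand changed: Fgf4, the autocrine FGF of ES cells, fell 6.08-fold from 506, 448 and 411 to 79.0, 79.3 and 63.9, and Fgf15 and Fgf18 rose 10.3-fold and at least 11.2-fold. As the mean of its probe sets the log2 difference of Fgf4 was larger, at -4.47. The feedback genes split, with Spry1 (2.80, SE 0.10), Dusp4 (2.79, SE 0.083) and Dusp6 (1.53, SE 0.076) higher and Spry4 (-0.83, SE 0.12), Etv5 (-1.33, SE 0.13) and Etv4 (-0.61, SE 0.075) lower.

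Ligands of the TGF-beta family changed in kind. Of 34 tested genes 25 rose and 7 fell, and the 7 that fell all did so by more than 2-fold. Lefty1, an inhibitor of NODAL, read 2008, 2201 and 2046 on the ES cell arrays and 96.2, 72.8 and 84.7 on the progenitor arrays (log2 difference -4.62, SE 0.091, adjusted p 7.04e-17). Nodal, Gdf3 and Lefty2 fell 17.5-fold, 25.9-fold and at least 12.5-fold, and the inhibitory Smad7 and Smad6 4.81-fold and 2.28-fold. Receptor, ligand and antagonist genes were among those that rose: Tgfbr2 at least 18.3-fold, Tgfbr3 16.2-fold, Bmp2 at least 15.1-fold and the antagonist gene Fst 16.8-fold. The other kept Tgfbr2 probe set was not called, and the log2 difference was 2.2 as the mean of its probe sets. Id1, a target of BMP, rose 2.32-fold along with Id3 and Id4.

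Wnt genes rose in 23 and fell in 10 of 40 tests (22 and 15 after centring), with a median of 0.89. Rspo2 read 13.9, 13.3 and 13.6 on the ES cell arrays and 1309, 1251 and 1128 on the progenitor arrays and so rose at least 31.3-fold. The other kept Rspo2 probe set was not called, and the log2 difference was 3.15 as the mean of its probe sets. Rspo2 encodes a secreted enhancer of Wnt signalling, as do Rspo3, at least 21.6-fold higher, and Rspo1 (0.88, SE 0.11). Wnt8b, a ligand of the forebrain, was at least 35.8-fold higher, from 15.3, 12.4 and 14.7 to 1309, 1503 and 1403. Inhibitors rose beside the ligands, with Dkk1 from 34.6, 38.9 and 92.4 to 827, 899.8 and 808, where the third ES cell array was the highest of its group, Dkk2 at least 10.2-fold and Frzb at least 12.3-fold. The target gene Axin2 rose 3.28-fold and Sp5 5.46-fold, whereas Lef1, a nuclear effector and target, fell 2.85-fold. Retinoic acid genes rose in 13 and fell in 3 of 18 tests (11 and 5 after centring): the retinol dehydrogenase gene Rdh10 7.32-fold and the binding protein genes Crabp1 and Crabp2 5.96-fold and 3.79-fold, with the receptor gene Rarg 4.74-fold lower.

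RNA-binding genes of the fetal state separated. Of 10 tested genes linked to LIN28 and let-7, 6 fell and 3 rose, with a median of -0.78. Lin28a, which blocks let-7, fell 3-fold from 1138 to 374, and Trim71, a let-7 target, 3.05-fold. Hmga2, a chromatin protein and let-7 target, read 261, 293 and 271 on the ES cell arrays and 4738, 4728 and 5121 on the progenitor arrays (log2 difference 4.14, SE 0.089, adjusted p 1.94e-16). Igf2bp3 rose 1.7-fold and Igf2bp1 fell 1.63-fold. Hmga2 went down again to a mean of 152 in neurons, and Trim71, Lin28a, Igf2bp1 and Igf2bp3 were lower in neurons than in progenitors too, with log2 differences of -3.42, -4.01, -3.47 and -2.26.

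Splicing regulators rose in 18 of 27 tests and fell in 3, with a median of 0.41. After centring 11 rose and 9 fell, with a median of 0.10. Ptbp2, the neural form of the polypyrimidine tract protein, rose 2.28-fold from 1239, 1313 and 1359.6 to 3028, 2914 and 2969. Ptbp1, which holds Ptbp2 down in other cells, moved within the scaling shift (-0.17, SE 0.067) and fell by 1.93 on the way to neurons. Celf2 read 151, 163 and 146 on the ES cell arrays and 2160.0, 2079 and 2116 on the progenitor arrays (log2 difference 3.78, SE 0.074, adjusted p 7.04e-17, and 2.51 as the mean of its probe sets). Nova1 and Elavl4, neuronal splicing factors, rose to 303 and 424.

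DNA methylation and Polycomb genes fell more often than they rose. Of 29 tested genes for DNA methylation and Polycomb 17 were lower and 8 higher (23 and 4 after centring), with a median of -0.61. Dnmt3l, a cofactor of de novo methylation, read 2610.2, 2841 and 2887 on the ES cell arrays and 43.7, 50.6 and 44.6 on the progenitor arrays (log2 difference -5.88, SE 0.12, adjusted p 1.18e-16). Tet1, which oxidises methylcytosine, read 5116, 4905 and 5256 on the ES cell arrays and 245, 210.3 and 224 on the progenitor arrays (log2 difference -4.49, SE 0.064, adjusted p 2.27e-18, and -3.65 as the mean of its probe sets). Tet2 fell 5.28-fold. The maintenance gene Dnmt1 moved by 0.19 (SE 0.049) and turned negative after centring.

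Polycomb complexes held members that fell and paralogues that rose. In PRC1, Cbx7 and Phc1 fell while Bmi1 and Phc2 rose. Cbx7, the chromodomain subunit of ES cells, read 939, 943 and 952 on the ES cell arrays and 177, 174 and 167 on the progenitor arrays (log2 difference -2.44, SE 0.061, adjusted p 1.11e-15). Phc2 read 257, 279 and 277 on the ES cell arrays and 2009, 2091 and 1994 on the progenitor arrays (log2 difference 2.90, SE 0.10, adjusted p 3.41e-14). Bmi1 rose 5.78-fold, Cbx2 and Cbx8 1.94-fold and 1.93-fold, and Phc1 fell 5.32-fold, from 6188, 5447 and 5299 to 1005, 1096 and 1072. The catalytic PRC1 genes Rnf2 (0.12, SE 0.049) and Ring1 (-0.12, SE 0.13) stayed within the scaling shift, and the other Rnf2 probe sets were called in both directions. In PRC2 the core genes Eed and Suz12 fell 2.45-fold and 2.24-fold and the accessory genes Jarid2, Mtf2 and Epop 3.12-fold, 2.39-fold and 4.91-fold, while the methyltransferase gene Ezh2 moved by -0.29 (SE 0.051).

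In the BAF remodelling complex subunits of neural forms rose, while the core subunits named here did not pass the test. Its ES cell form uses the ATPase BRG1 (Smarca4), and neural forms take in BRM (Smarca2), BAF170 (Smarcc2) and BAF60C (Smarcd3). Of 30 remodeller genes 8 rose and 13 fell (5 and 21 after centring), with a median of -0.16. Smarca2 read 29.4, 25.9 and 36.8 on the ES cell arrays and 551, 554 and 503 on the progenitor arrays (at least 13.7-fold higher, adjusted p 4.47e-16). Smarcd3 read 57.4, 40.3 and 64.7 on the ES cell arrays and 482, 511 and 478 on the progenitor arrays (log2 difference 3.18, SE 0.16, adjusted p 7.79e-12). Smarcc2 rose 3.03-fold. Smarca4 (0.14, SE 0.064), Smarcc1 (-0.16, SE 0.084) and Smarcb1 (0.082, SE 0.061) did not pass the test, and Actl6b, the subunit of neurons after division, stayed at background in both groups while its progenitor counterpart Actl6a fell 1.48-fold. Hells, a remodeller for DNA methylation, fell 3.49-fold from 6169, 6548 and 6907, and Chd3 rose 4.56-fold.

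**Figure D3:**
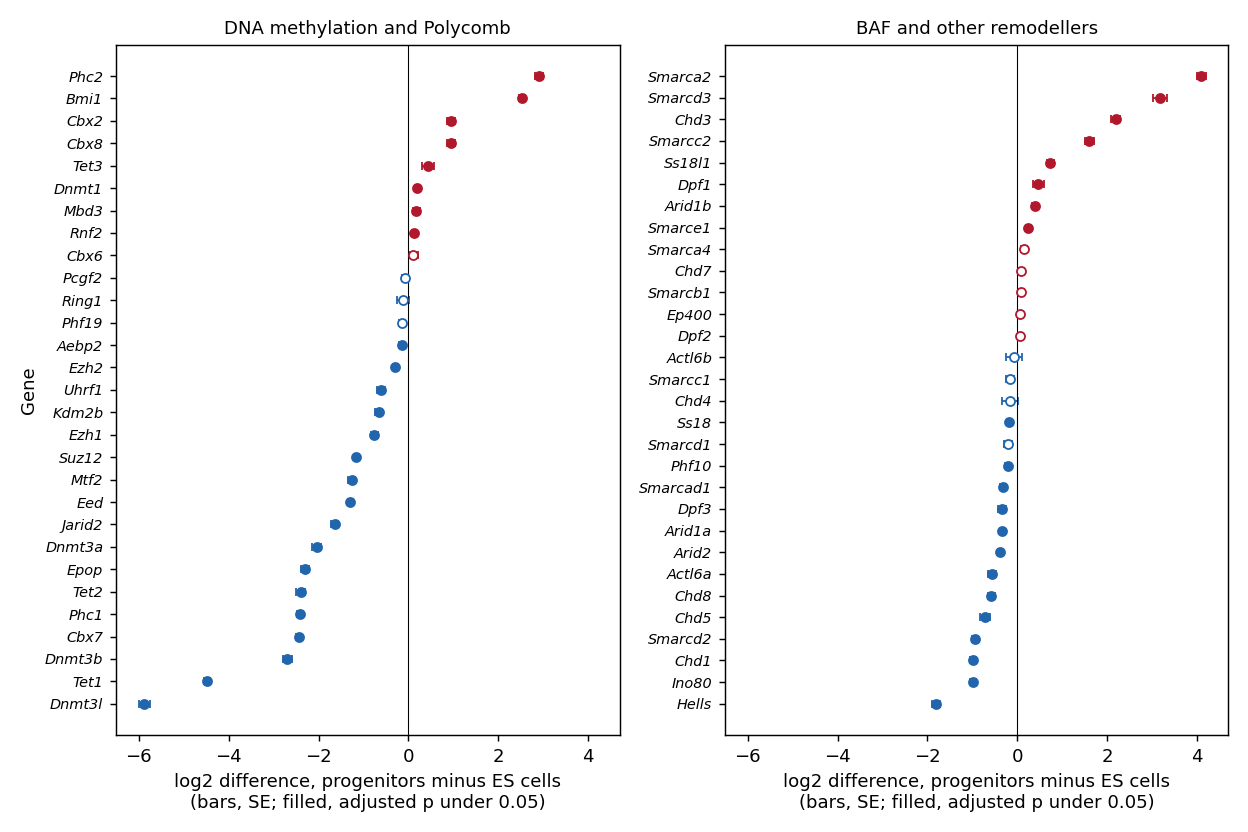
Log2 difference (neural progenitors minus ES cells) with its SE for the tested DNA methylation and Polycomb genes and the BAF and other remodeller genes, ordered by size, with filled points for genes past an adjusted p of 0.05. Dnmt3l and Tet1 lie lowest, and Phc2, Bmi1, Smarca2 and Smarcd3 stand out to the right.

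Of 25 listed histone variant and linker histone genes 10 could be tested, of which 6 rose and 2 fell (4 and 4 after centring), with a median of 0.37 that was 0.06 after centring. The linker histone gene H1f2 read 113, 134 and 108 and 926, 933 and 929 (2.97, SE 0.081), with 1 other probe set called lower, and Macroh2a1 and Macroh2a2, variants of condensed chromatin, rose 2.23-fold and 2.25-fold. Of the HMGN family, the nucleosome-binding relatives of Hmgn1, Hmgn5 rose 2.07-fold from 754, 750.0 and 819 to 1659, 1599 and 1552. Hmgn3 read 211, 202 and 603 on the ES cell arrays and 2241, 2091 and 2161 on the progenitor arrays (log2 difference 2.87, SE 0.26, adjusted p 2.75e-08), with the third ES cell array well above the other two, and a second probe set rose from a mean of 49.7 to 705 (3.81, SE 0.09). Hmgn1 stayed bright in both groups: its main probe set read 11022, 11332 and 11089 and 11594, 11506 and 10841 (0.021, SE 0.046), and of its other bright ones 1 rose by 0.29 (SE 0.05) and 1 moved by 0.07 (SE 0.06).

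Replication and growth genes were lower. In the S phase and licensing list 23 of 31 tested genes fell and 3 rose (29 and 0 after centring), with a median of -0.65, and in the mitosis list 21 of 28 fell and 3 rose (25 and 0 after centring), with a median of -0.38. Orc1 and Mcm10, which load and start replication forks, fell 3.76-fold and 3.07-fold, and Mcm3 2.19-fold. Msh6, a mismatch repair gene, read 7149, 7200.3 and 7255 on the ES cell arrays and 1911, 1919.6 and 1869 on the progenitor arrays (log2 difference -1.92, SE 0.048, adjusted p 1.15e-15). Mki67, the proliferation marker, did not pass, at 2579.5, 2520.4 and 2570.4 and 2538, 2604 and 2556, nor did Pcna (0.10, SE 0.050). Most of the mitotic falls were near the size of the scaling shift, with Cdk1 at -0.19 and Cdc20 at -0.40, and 1 of 28 genes fell 2-fold.

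Genes of the G1 phase changed over. Ccnd2, cyclin D2, read 399, 435 and 373 on the ES cell arrays and 9349, 10003 and 9841 on the progenitor arrays (log2 difference 4.60, SE 0.071, adjusted p 4.93e-18). Ccnd1 rose 3.02-fold, and Ccne1, cyclin E1, fell from 3119, 3095 and 2909 to 995, 1065 and 1039. CDK inhibitors rose together: Cdkn1c 7.58-fold, Cdkn1a 4.53-fold, Cdkn2b 4.34-fold and Cdkn2c 3.26-fold. Over the whole list 18 of 26 genes rose and 2 fell (14 and 7 after centring), with a median of 0.80. Of the p53 targets, Cdkn1a, Ccng1, Phlda3, Perp and Plk2 rose at least 2-fold and Pmaip1 fell 2.49-fold, with 8 higher and 4 lower among 17 tests (7 and 9 after centring) and a median of 0.15 that was -0.16 after centring.

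Ribosome biogenesis and MYC target genes fell in 25 of 26 tests and rose in none, with a median of -0.79. Fbl alone did not pass (-0.047, SE 0.056), and after centring all 26 were lower. Gnl3, nucleostemin, read 5852, 5779 and 5636 on the ES cell arrays and 2327, 2277 and 2356 on the progenitor arrays (log2 difference -1.31, SE 0.046, adjusted p 8.38e-14). Ncl, the abundant nucleolar protein nucleolin, went from a mean of 13097 to 8016, and Wdr12, of the large subunit pathway, fell 2.82-fold. Myc and Mycn, which drive such genes, fell 1.86-fold and 1.82-fold.

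Glycolytic genes fell. Of 25 tested genes of glycolysis and the hypoxia response 18 fell and 4 rose, with a median of -0.75. Pdk1, the kinase that keeps pyruvate out of mitochondria, read 4192, 4129 and 4277 on the ES cell arrays and 172, 167 and 139.7 on the progenitor arrays (log2 difference -4.71, SE 0.11, adjusted p 3.67e-16, and -3.70 as the mean of its probe sets). Bnip3, a mitophagy receptor that HIF1 induces, read 4107, 3992 and 4575 on the ES cell arrays and 456, 469.7 and 446 on the progenitor arrays (log2 difference -3.20, SE 0.077, adjusted p 7.78e-16). Pfkp, Aldoa and Ldha fell 5.47-fold, 3.25-fold and 2.54-fold. In neurons Pdk1, Bnip3, Pfkp and Ldha were higher again than in progenitors, by 3.13, 4.19, 2.72 and 1.31. In the respiratory chain 20 of 34 subunit genes rose and 6 fell, none of the rises by 2-fold, with a median of 0.20. After centring the split turned, with 5 higher and 18 lower and a median of -0.11, so this list has no settled direction. Cox7a1 was its exception, 5.09-fold lower.

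Every tested gene of cholesterol and fatty acid synthesis was higher, 22 of 22, with a median of 1.06. After centring 18 were higher and none lower, with a median of 0.74. Hmgcs1, the enzyme that feeds the mevalonate pathway, read 5076, 5189 and 5214 on the ES cell arrays and 10197, 10312 and 10458 on the progenitor arrays, a 2-fold rise (adjusted p 7.48e-13). Scd2, the stearoyl desaturase of brain, read 4291, 4483 and 4239 on the ES cell arrays and 13775, 13856 and 13587 on the progenitor arrays (log2 difference 1.66, SE 0.056, adjusted p 5.56e-14). Hsd17b7, Sc5d and Cyp51, of the steps after lanosterol or at it, rose 4.65-fold, 3.9-fold and 2.95-fold, and another probe set of Hsd17b7 was called lower. Genes of serine, glycine and one-carbon metabolism fell in 11 of 14 tests and rose in 1, with a median of -0.71; that list holds Dnmt3l by an error of entry, and without it 10 of 13 fell. Shmt2, which makes one-carbon units in mitochondria, fell 2.22-fold, and Phgdh, the first enzyme of serine synthesis, rose by 0.24 (SE 0.058) with 1 other probe set called lower.

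Imprinted genes, which are expressed from 1 parental allele and many of which act in growth, rose in 22 and fell in 10 of 36 tests, with a median of 0.57. Plagl1, a zinc finger gene that regulates others of the group, read 139, 151 and 136 on the ES cell arrays and 7584, 7867 and 7003 on the progenitor arrays (log2 difference 5.71, SE 0.058, adjusted p 4.03e-20, and 3.13 as the mean of its probe sets). Igf2, the fetal growth factor, read 149.6, 187 and 185 on the ES cell arrays and 2469, 2549.6 and 2572 on the progenitor arrays (log2 difference 3.86, SE 0.074, adjusted p 5.72e-17, and 2.65 as the mean of its probe sets). Nnat, Mest and Cdkn1c rose 22.9-fold, 8.4-fold and 7.58-fold. Phlda2, which restrains placental growth, fell 20.1-fold, from 1651, 1639.7 and 1505 to 69.0, 79.8 and 88.0, and Meg3 2.26-fold on the probe set used and in the same direction on 6 of 10 others. Interferon and MHC class I genes had a median near 0 (-0.06, of either sign between alternatives) with 6 higher and 10 lower of 22: the antigen presentation genes B2m, H2-K1, H2-D1 and Tap1 rose 5.25-fold, 2.22-fold, 3.38-fold and 2.26-fold, and the antiviral membrane protein genes Ifitm1, Ifitm2 and Ifitm3 fell 4.63-fold, 2.49-fold and 2.93-fold.

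Further genes outside these lists were among the large changes. Mymx, a fusion peptide of muscle cells, fell to background: it read 2573, 2644 and 2473 on the ES cell arrays and 15.4, 14.5 and 16.8 on the progenitor arrays, at least 67.3-fold lower. The zinc finger genes Zfp936 and Zfp979 fell at least 30.6-fold and 55-fold, the oocyte protein gene Ooep 47.9-fold and the phospholipase gene Pla2g1b at least 30-fold. Among genes above the bound in both groups Gtsf1l and Nr0b1, the latter a partner of OCT4 and NANOG, fell 41.9-fold and 34.1-fold. Large rises outside the groups above were those of the water channel Aqp8, at least 75-fold, the proteoglycan Srgn, 108-fold, the BMP modulator Bmper, at least 34.1-fold, the protease Ctsh, at least 70.2-fold, the calcium-binding S100g, 82.2-fold, and the FGF carrier Fgfbp3, at least 40.1-fold. Plat, Dmrta2 and Irs1, above the bound in both groups, rose 54.2-fold, 47.6-fold and 47.5-fold, Dmrta2 from 37.0, 34.8 and 114 with the third array high.

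The same step was set against that of cells labelled Hmgn1-/-, which used other arrays. On those arrays the main Hmgn1 probe set still read 9057, 8770 and 9079 in ES cells and 9156, 9219 and 8654 in progenitors, against the values above, lower than in the intact cells but far above background. Another Hmgn1 probe set read 7426 to 7866 and 8170.3 to 8496 there. Whether the probes lie in the deleted part was not tested, and these arrays are named by their label throughout. Across genes the steps of both genotypes correlated at r 0.967, as a description over genes that are not independent. The difference of the 2 steps was called for 2358 genes, 16.3% of those tested, 824 with the step labelled Hmgn1-/- above the other (5.71%) and 1534 with it below (10.6%), and for 226 genes (1.57%) it reached 2-fold. That split depended on scaling: genes above made up 34.9% of those called on the deposited scale, 43.6% after quantile normalization and 56.4% after centring.

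For several genes that carry the results above the difference between the steps did not pass the test. Nanog went by -6.01 on the Hmgn1+/+ arrays and -6.35 on those labelled Hmgn1-/- (adjusted p of the difference 0.202), Fabp7 from under the bound to progenitor means of 11955 and 11813 (0.275), Pax6 by 2.95 and 2.63 (0.133) and Cdh2 by 6.09 and 5.73 (0.204). Pou5f1 fell further on the arrays labelled Hmgn1-/-, -5.24 against -4.47 (0.00177). In the endoderm product and mesenchyme lists 22 of 34 and 28 of 43 members were called, with median differences of -0.53 and 0.71, of which 18 endoderm products lay below and 4 above, and 27 mesenchyme genes above and 1 below, on the arrays labelled Hmgn1-/-. The medians were -0.45 and 0.78 after centring. Examples are Sox17, under the bound in ES cells of both genotypes and at means of 4710.2 and 1359 in progenitors (adjusted p of the difference 1.10e-06), Lama1, 5.13 against 3.85 (2.14e-05), and Pdgfrb, also under the bound in ES cells and at 204 and 575 in progenitors (9.38e-06). In the midbrain floor plate list 14 of 28 were above and 1 below, with a median of 0.50. The neural progenitor list had 8 of 36 members called, 3 above and 5 below, and a median difference of 0.15. After centring that split turned, with 7 above and 2 below.

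Olig1 and Olig2, factors of oligodendrocyte and motor neuron precursors, were among the genes whose steps differed by much. Olig1 read 629.8, 595 and 562 on the ES cell arrays and 394, 406 and 359 on the progenitor arrays, a fall of 0.62 (SE 0.14), where on the arrays labelled Hmgn1-/- it went from a mean of 18.3, under the bound, to 267 (adjusted p of the difference 1.33e-09). Olig2 went from a mean of 281 to 116 on the Hmgn1+/+ arrays and from under the bound to 91.6 on the others (5.19e-11). For both genes the genotypes thus lay further apart in ES cells than in progenitors. With each array's value set to at least its bound, the differences between the steps were 3.41 and 2.52, against fitted values of 4.43 and 4.22. The placental prolactin genes Prl2a1, Prl7b1 and Prl7d1 were under the bound in ES cells of both genotypes and reached means of 56.9, 43.9 and 46.6 in Hmgn1+/+ progenitors and 313, 257 and 263 on the arrays labelled Hmgn1-/-. On the other side were Ptger3, Tspan8, Enpep and Hs3st1, under the bound in Hmgn1+/+ ES cells, with progenitor means of 574, 329, 1345 and 1627 on the Hmgn1+/+ arrays and 77.9, 129, 322 and 601 on the others. Car8, above the bound in ES cells of both genotypes, had progenitor means of 436 and 91.9. Ntn1 and Bmp4 rose more on the arrays labelled Hmgn1-/-, by 4.67 and 3.03 against 2.17 and 0.74.

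**Figure D4:**
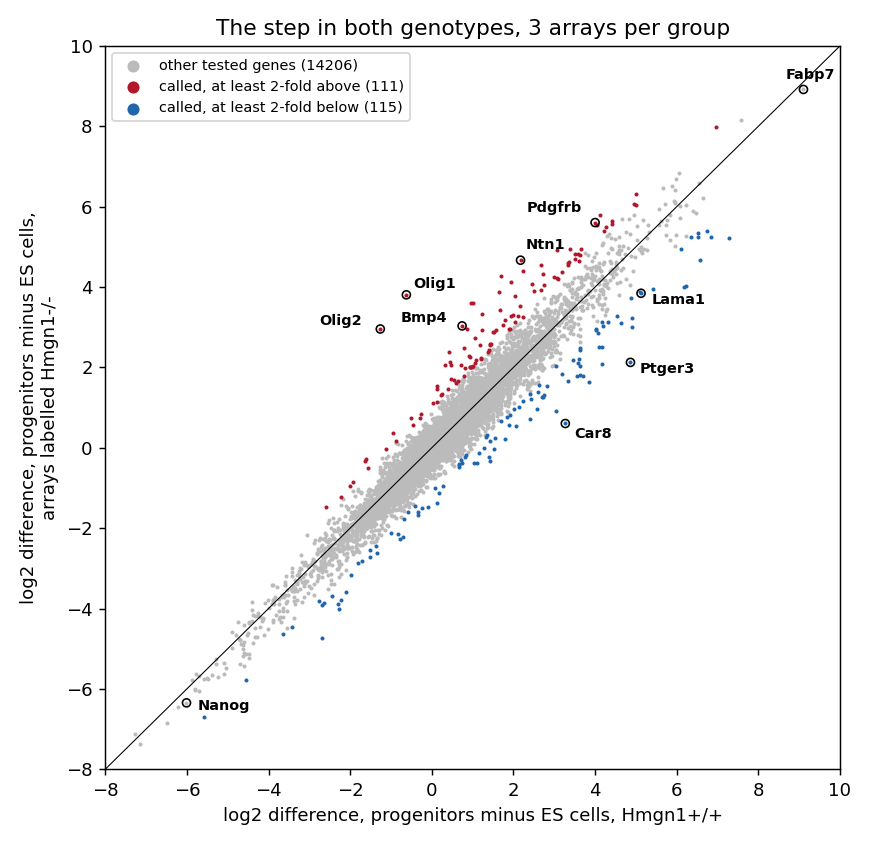
Log2 difference from ES cells to neural progenitors of each tested gene in Hmgn1+/+ cells (horizontal) and in those labelled Hmgn1-/- (vertical), with genes whose difference between the steps was called and at least 2-fold in colour. The cloud follows the diagonal, the 226 coloured genes lie off it, with Olig1 and Olig2 far above by their fitted values.

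Set beside the next step, from progenitors to neurons with the same progenitor arrays, the changes took several courses, given here as values with no test of likeness because the arrays are shared. Some genes went on in the same direction: Gpm6a rose by 3.25 more and Dcx by 3.52, and Pou5f1 fell by a further 4.08. Others were high in progenitors and lower on both sides, such as Hmga2 (above), Nes, 2.43 and then -2.19, Hes1, 2.16 and then -1.95, and Sox17, 7.27 and then -2.37. Fabp7 moved by 0.005 in that step and Vim by -0.36.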

How the data were processed

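Total RNA was hybridised as biotin-labelled cRNA to Affymetrix mouse arrays, 1 array per sample. The deposited values were probe set intensities on a linear scale, made by the authors with RMA per the submitters' processing notes, which also name limma but give neither a version nor settings. Gene symbols came from the platform's annotation, matched for 34741 probe sets to RefSeq by gene ID. Of 45101 probe sets, 64 controls, 9160 without a symbol and 932 with several were left out of the gene tests.

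For this comparison log2(intensity + 1) was analysed. A probe set was kept if it exceeded the 40th percentile of an array on at least 3 of the 18 arrays, and the kept probe set with the highest mean stood for its gene. limma 3.58.1 in R 4.3.3 was fitted with 6 group means over all 18 arrays (12 residual degrees of freedom, lmFit and eBayes), with Benjamini-Hochberg adjustment over 14432 genes. The difference between genotypes was the contrast of the 2 steps in that fit. The bound for "at least" folds was the 40th percentile of each array. Precision is limited by the 3 arrays per group. Of the tested genes 1490 were read by probe sets of the types that can match related transcripts, and 862 of 5599 called genes with a further kept probe set had 1 called in the opposite direction. The fit was tested on simulated data.

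The comparison, the gene lists and the marker lists were chosen with earlier results of these data known, and the CACGTG motif after its promoters were read. Genes were named by rule: the 15 largest changes in each direction with groups that did not overlap, the 10 largest with both groups above the bound, up to 6 called members per direction of each list, the 5 largest differences between genotypes in each direction, the HMGN family, genes far off on 1 array, and further list members with their values. Alternatives were other sets of arrays, a replicate block, other scalings, pseudocounts, filters and probe set rules, array weights, a variance trend and a test against 1.2-fold.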

Additional observations from a re-analysis of the deposited data

Results flagged for a closer look

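The difference between the step in Hmgn1+/+ cells and the step on the arrays labelled Hmgn1-/- was called for 2358 genes, tested as a contrast in 1 fit with 3 arrays per group. Values here are the step labelled Hmgn1-/- minus the other, on the log2 scale. Among the genes named, Olig1 (4.43) and Olig2 (4.22), which oligodendrocyte and motor neuron precursors use, lay above, as did the placental prolactin genes Prl2a1 (2.65), Prl7b1 (2.59) and Prl7d1 (2.58), the floor plate cue Ntn1 (2.49), the ligand gene Bmp4 (2.29) and the mesenchymal receptor gene Pdgfrb (1.60). On the other side lay Ptger3 (-2.74), Car8 (-2.67), Tspan8 (-2.23), Enpep (-2.20), Hs3st1 (-2.18), the endoderm factor Sox17 (-2.05), the laminin gene Lama1 (-1.28) and Pou5f1 (-0.77). Several of these values start from ES cell levels under the background bound. With each array's value set to at least its bound they were 3.41 for Olig1, 2.52 for Olig2, -1.45 for Tspan8, -1.43 for Hs3st1 and -1.77 for Sox17.

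Probe sets with no gene name or with several were left out of the comparison. Of 4579 such probe sets that passed the same filter, 2889 (63.1%) were called between progenitors and ES cells, 952 higher and 1937 lower, against 78.5% of the tested genes. Groups of 3 arrays were too small for a check on single outlying arrays by the rule used for larger groups.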

How the results depend on the processing

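The count of changed genes stayed within 1.5 times of 11334 except where every kept probe set was tested on its own (19911 of 26311 probe sets, with 6642 at least 2-fold changed against 3901 genes). Against a 1.2-fold minimum 8064 genes were called, and 495 of the 2358 differences between genotypes. Leaving out 1 of the 6 Hmgn1+/+ arrays gave 10856 to 11038 changed genes and 3885 to 3931 at least 2-fold. Leaving out 1 of the 12 arrays of ES cells and progenitors gave 1837 to 2498 differences between genotypes, where the 6 arrays labelled Hmgn1-/- were added after seeing the data. The replicate numbers did not pair the arrays: same-numbered ES cell and progenitor arrays deviated together with r -0.005, -0.051 and -0.014, and with the replicate block 11263 genes were called and 2194 differences between genotypes. Centring on the array median turned Amn (-0.01), Dnmt1 (-0.13), Fn1 (-0.31), Hmgn1 (-0.29), Mki67 (-0.31), Pcna (-0.21), Phgdh (-0.07), Rnf2 (-0.19), Smarca4 (-0.17), Smarcb1 (-0.23) and Stmn2 (-0.07). Centring accounts for this by its construction, since it lowers every difference of progenitors minus ES cells by 0.31. The mean of a gene's probe sets turned Fn1 (-1.05), Il6st (0.11), Lifr (0.55), Ptch1 (-0.03) and Rnf2 (-0.03), whose probe sets differ in direction. Of the named genes' differences, 283 of 319 kept their side of the threshold and, where called, their direction in every alternative that gave a value, and 40 of 47 list medians kept their sign. Testing every probe set gives no single value for a gene and was not applied to single genes.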
